A study of Homo sapiens with 4 samples.

Results

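GOLIM4, SEC31A and SEC16A are 3 genes of the secretory pathway, and the data on them are 105 alternative splicing events out of 121269 in the 5 deposited event tables. All events that carry one of the 3 gene symbols were taken. The genes themselves had been picked with earlier results of these libraries in view, so their differences between RBFOXi and SCRM are described here and not tested. The 105 events comprise 73 skipped exons, 24 mutually exclusive pairs, 6 choices of acceptor (alternative 3′ splice sites) and 2 choices of donor (alternative 5′ splice sites). The retained intron table holds 0 events of these genes.

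The RNA came from U87MG, a human glioblastoma cell line, transfected with an oligonucleotide at 2.5 µM by lipofection. RBFOXi is a 2′-O-methyl RNA decoy that carries repeats of the binding motif of the splicing factors RBFOX1 and RBFOX2, and SCRM is its scrambled control. Each group has 2 libraries, and the labels give a Cy5 dye on the oligonucleotide of RBFOXi replicate 1 and name none for the others. Both groups are transfected cells of 1 line, so an untreated level is not analysed here. The mesenchymal markers VIM, CD44, FN1, TNC and SPARC all had counts, from 356 to 14700 per 1000000 skipped exon counts of a library, while PTPRC, PECAM1, EPCAM and SYN1, markers of blood, endothelial, epithelial and neuronal cells, had 0 events listed.

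Proteins made at the endoplasmic reticulum leave it at exit sites in vesicles wrapped in the COPII coat and then enter the Golgi apparatus. SEC16A is the large scaffold that organises the exit sites, and SEC31A forms, with SEC13, the outer cage of the COPII coat. GOLIM4, also called GPP130, is a membrane protein of the cis-Golgi that cycles through endosomes. RBFOX proteins bind UGCAUG in introns, and a bound site downstream of a cassette exon generally favours its inclusion while a bound site upstream generally favours skipping.

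The sequences beside the leading exon of each gene are shown because they differ in where this motif lies. They are from hg19, all 3 genes are on the minus strand, and each sequence is written as DNA in the direction of transcription. In GOLIM4 the leading exon is an 84 nt cassette exon at chr3:167758574-167758657, and the capitals mark TGCATG, the DNA form of UGCAUG, in the first 150 nt of the intron that follows it.
GOLIM4 cassette exon: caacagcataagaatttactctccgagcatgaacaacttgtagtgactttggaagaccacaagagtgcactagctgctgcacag
GOLIM4 downstream intron, chr3:167758424-167758573: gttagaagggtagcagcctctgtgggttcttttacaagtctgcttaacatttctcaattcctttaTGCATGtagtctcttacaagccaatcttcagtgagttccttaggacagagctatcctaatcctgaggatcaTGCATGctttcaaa
The motifs begin 66 and 137 nt after the GOLIM4 exon, the 3791 nt intron holds 5 copies in all, and the 522 nt intron before the exon holds 0. In SEC16A the nearest motif lies on the other side, where its last base is 45 nt before a 60 nt cassette exon at chr9:139339504-139339563. The 533 nt intron before that exon holds 1 copy, and the 1151 nt intron after it holds 1 that begins at 919 nt.
SEC16A upstream intron, chr9:139339564-139339623: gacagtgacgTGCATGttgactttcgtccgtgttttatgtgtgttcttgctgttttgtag
SEC16A cassette exon: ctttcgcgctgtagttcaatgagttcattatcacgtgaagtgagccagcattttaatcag
The leading SEC31A exon is 297 nt long at chr4:83763338-83763634 and has a longer form of 342 nt that ends at a donor site 45 nt further on. The capitals in the stretch across its end mark the GT of both donor sites, and the second line gives the end of the intron before the exon.
SEC31A exon end with both donors, chr4:83763278-83763357: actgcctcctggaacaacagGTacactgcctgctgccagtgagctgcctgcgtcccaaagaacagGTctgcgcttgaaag
SEC31A upstream intron, chr4:83763635-83763694: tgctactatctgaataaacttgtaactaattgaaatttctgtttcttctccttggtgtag
UGCAUG is in neither stretch, the 1904 nt intron before the SEC31A exon holds 0 copies, and the nearest of 8 copies in the 13126 nt intron after it begins 2885 nt from the shorter form.

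**Figure D1:**
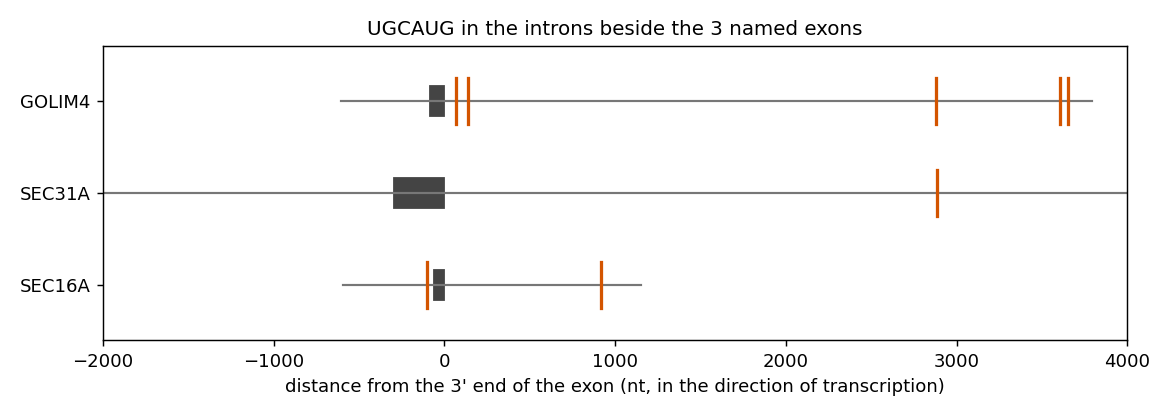
Position of UGCAUG (orange ticks) in the introns (grey lines) beside the leading exon (dark boxes, to scale) of GOLIM4, SEC31A and SEC16A, in nt from the 3′ end of the exon. GOLIM4 has copies 66 and 137 nt downstream, SEC16A has 1 copy just upstream of the exon and 1 at 919 nt downstream, and SEC31A has its nearest copy at 2885 nt (7 copies beyond 4000 nt are not drawn).

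Inclusion was measured as the proportion spliced in (PSI), from 0 for an exon always skipped to 1 for an exon always included, computed from the inclusion and skipping counts divided by the effective lengths of both forms. Delta PSI is the difference of the group means, RBFOXi minus SCRM. A limma fit over all genes took events whose libraries each held 5 counts or more, with a mean of 20 and with 4 counts of either form in total. The call needed an adjusted p under 0.05 and an absolute delta PSI of 0.1 or more. This filter passed 42 of the 73 skipped exon events of the 3 genes, at 30 distinct exons. Of the 31 others, 30 had under 4 skipping counts in all and 1 had too few counts.

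The total of skipped exon counts per library ranged from 114415530 to 136097319. In SCRM replicate 1 the counts were lower toward the 5′ ends of genes. Over 1939 other genes with at least 6 exons of PSI 0.95 or more, the median ratio of counts per nt in the 5′ exons to those in the 3′ exons was 0.554 in that library and between 0.941 and 1.08 in the other 3. In SEC31A, over 15 such exons, the ratio was 0.249 in SCRM replicate 1 against 0.859, 0.893 and 1.14, and in SEC16A, over 9 exons, it was 0.496 against 0.810, 0.792 and 1.01 (RBFOXi replicate 1, RBFOXi replicate 2 and SCRM replicate 2, in that order). GOLIM4 has 2 such exons and ratios of 1.02 to 1.34, but its counts per 1000000 were 3.83 in SCRM replicate 1 and 14.7 to 21.1 in the others. The part of this difference in the PSI values was not tested, so each leading value is also given without that library.

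**Figure D2:**
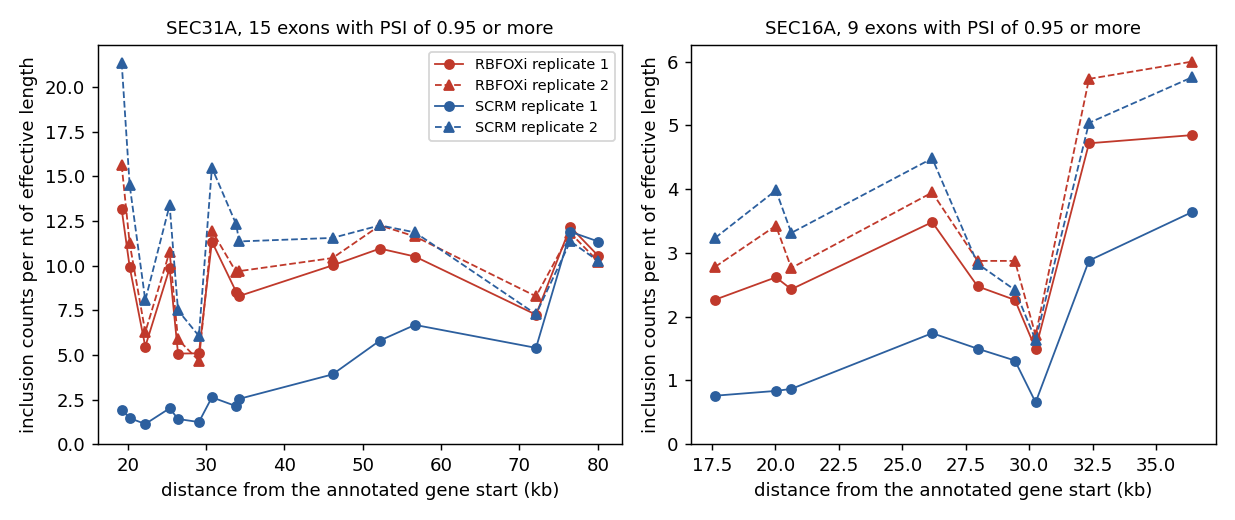
Inclusion counts per nt of effective length (y) of the exons with PSI of 0.95 or more, by distance from the annotated gene start (x, kb), in SEC31A and SEC16A, with 1 line per library. SCRM replicate 1 lies lowest at the 5′ exons of both genes and reaches the level of the other 3 libraries at the last SEC31A exons.

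The 84 nt exon of GOLIM4 was mostly included in SCRM cells and mostly skipped in RBFOXi cells, the largest difference among the tested events of the 3 genes. Its PSI was 0.402 and 0.421 in the RBFOXi libraries and 0.909 and 0.885 in the SCRM libraries, in the order of the replicates. Both RBFOXi libraries lay far below both SCRM libraries, and the replicates of each group lay close together. The exon rested on 243 and 255 inclusion counts against 191 and 185 skipping counts with RBFOXi. With SCRM it rested on 151 and 828 inclusion counts against 8 and 57 skipping counts. The means were 0.411 ± 0.0137 (SD, n = 2) and 0.897 ± 0.0171 (SD, n = 2), a delta PSI of -0.485, and -0.473 without SCRM replicate 1. The Wilson 95% interval of PSI in that library, from 0.832 to 0.952, covers counting error only and did not reach the RBFOXi values. The exon is coding in the 1 of 3 annotated GOLIM4 transcripts that holds it, and its length is a multiple of 3, so that skipping keeps the reading frame. It is the member event called by limma among the 42, where 27 of 39615 tested events, or 0.0682%, were called, and since the gene was chosen on this contrast nothing is read from that call.

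The neighbouring GOLIM4 exons stayed included in every library. The 159 nt exon that follows had PSI between 0.975 and 1.00, a delta PSI of -0.00436, and UGCAUG ends 133 nt before it. That copy lies at the far end of the same intron whose start is shown above. The 83 nt exon that precedes had 0 to 2 skipping counts in a library. At another exon of GOLIM4, chr3:167747008-167747090, a pair of donor sites 3 nt apart was used, and the outer one took a share of 0.322, 0.237, 0.267 and 0.233 (RBFOXi replicates 1 and 2, then SCRM replicates 1 and 2). These shares overlapped between the groups, with a delta PSI of 0.0291. The 3 GOLIM4 pairs of mutually exclusive exons had delta PSI from -0.0106 to 0.0285 and overlapping groups.

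SEC31A moved the other way at its leading exon, which gained inclusion with RBFOXi. The 297 nt form had PSI of 0.790 and 0.738 with RBFOXi and 0.618 and 0.533 with SCRM, on 1587 to 3333 counts per library. All 4 libraries included the exon in more transcripts than they skipped it, and the RBFOXi libraries lay above both SCRM libraries. The means were 0.764 ± 0.0367 and 0.575 ± 0.0603 (SD, n = 2 each), a delta PSI of 0.189, and 0.231 without SCRM replicate 1. The inclusion counts ranged from 1448 to 3159, and the skipping counts were 123 and 174 with RBFOXi and 139 and 259 with SCRM. The inclusion form of this event has an effective length of 335 nt and the skipping form 52 nt, so that the plain share of inclusion counts gave a delta of 0.0578. The 342 nt form had PSI of 0.789, 0.735, 0.621 and 0.530 in the same order, a delta PSI of 0.187, but it shares the skipping junction and most inclusion reads with the shorter form and is not a second observation. In another event the exon is set against skipping to a 39 nt exon instead, and its PSI was between 0.967 and 1.00 in every library, with 0 to 6 skipping counts. Both forms are coding in every annotated transcript that holds them, 4 for the shorter and 6 for the longer, and both lengths are multiples of 3.

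The choice between the donor sites at the end of this SEC31A exon did not separate the groups. The share of the longer form was 0.634 and 0.688 with RBFOXi and 0.684 and 0.565 with SCRM, a delta PSI of 0.0362 against SDs of 0.0379 and 0.0841 (n = 2 each). In the mutually exclusive table, the 297 nt exon is paired with a 59 nt exon at chr4:83750153-83750211 and took 0.541 and 0.507 with RBFOXi against 0.408 and 0.367 with SCRM. The groups did not overlap there or with the 342 nt form, with delta PSI of 0.137 and 0.135. The 59 nt exon itself had 0 to 3 skipping counts in a library where it was scored as a cassette exon, and the inclusion counts of the larger exon enter both tables, so the paired events count the same gain again. Paired with the 39 nt exon instead, the 342 nt and 297 nt forms had delta PSI of 0.0133 and 0.0134. The groups overlapped in both of those pairs, and the 39 nt exon had 0 to 6 counts in a library. In limma, 0 of the 24 mutually exclusive events of the 3 genes were called, with 2 at an unadjusted p under 0.05, and over all genes 0 of 26176 were called (0%) and 1.51% had such a p.

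A further SEC31A exon has the motif at a similar distance to that in GOLIM4 and did not separate the groups. This 39 nt exon lies at chr4:83752090-83752128, between the 59 nt exon and the leading exon, and the capitals mark the motif, which begins 77 nt after it.
SEC31A 39 nt exon, downstream intron, chr4:83752000-83752089: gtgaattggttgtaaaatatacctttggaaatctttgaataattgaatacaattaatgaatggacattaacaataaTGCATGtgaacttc
Its PSI was 0.238 and 0.170 with RBFOXi and 0.221 and 0.234 with SCRM when the larger exon was included, on 139 to 211 counts. It was between 0 and 0.0531 when the larger exon was skipped. Both events overlapped between the groups, with delta PSI of -0.0240 and -0.00303.

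The other tested events at alternative exons of SEC31A overlapped between the groups. The 78 nt coding exon at chr4:83782784-83782861 had PSI of 0.719 and 0.831 with RBFOXi and 0.545 and 0.751 with SCRM, next to a second 39 nt exon at chr4:83783687-83783725. This delta PSI of 0.127 rested on 60 counts in SCRM replicate 1 and on a skipping form of 15 nt effective length, and the same exon without its neighbour had a delta PSI of 0.0216. Without the 78 nt exon, the 39 nt neighbour, with UGCAUG 238 nt upstream, had PSI of 0.542, 0.456, 0.585 and 0.516 and a delta PSI of -0.0510. Beside the 78 nt exon its PSI was 0.910, 0.985, 0.978 and 0.969, a delta PSI of -0.0259 (both in the order RBFOXi replicates 1 and 2, then SCRM replicates 1 and 2). At the 5′ end of the gene, non-coding exons of 74 nt and 25 nt and an 83 nt exon that the annotation lacks had delta PSI from -0.0165 to 0.0659 in the tested events. A further event of the 74 nt exon failed the filter, with 0 to 1 skipping counts in a library, and had PSI of 1.00 and 0.875 with RBFOXi and 0.791 and 0.842 with SCRM. The 93 nt coding exon at chr4:83766354-83766446 was included at 0.0315 to 0.0451 in every library. In 15 further tested SEC31A events PSI was at least 0.95 in all 4 libraries, with delta PSI from -0.00548 to 0.00662. Of the 31 tested SEC31A events, the groups did not overlap in 8, against 30.8% of all tested events. Apart from both forms of the leading exon, these 8 were among the 15 events with PSI of at least 0.95.

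**Figure D3:**
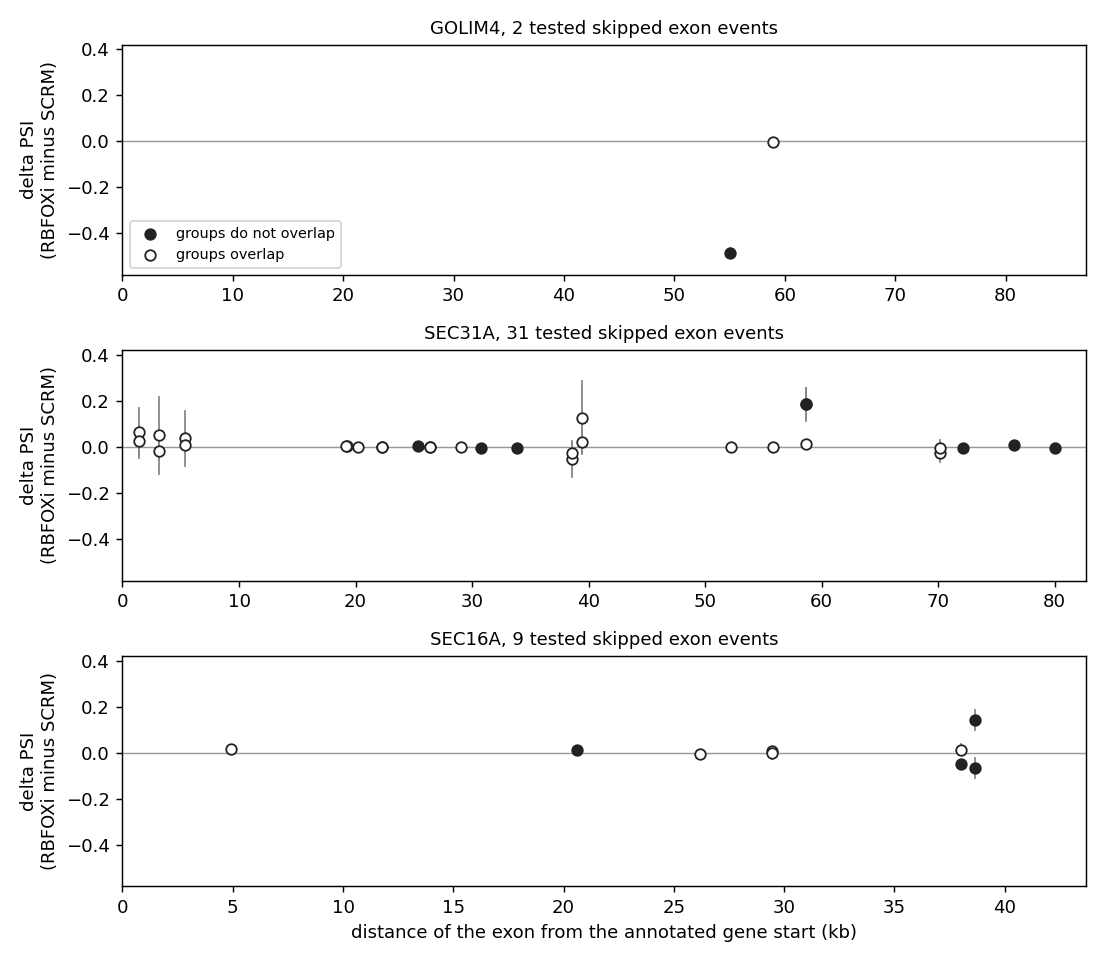
Delta PSI (y, RBFOXi minus SCRM) of each tested skipped exon event by the distance of the exon from the annotated gene start (x, kb). Bars span the 4 differences between single libraries, and filled points are events whose groups do not overlap. The GOLIM4 point at -0.485, the overlaid SEC31A points at 0.189 and 0.187, and the SEC16A point at 0.140 lie farthest from 0 among filled points.

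SEC16A has its alternative exons near the 3′ end, where a 60 nt exon and a 75 nt exon follow each other and each can be skipped. Where the 75 nt exon was present, the 60 nt exon had PSI of 0.718 and 0.702 with RBFOXi and 0.534 and 0.605 with SCRM. The RBFOXi libraries lay above both SCRM libraries, on 116 to 168 counts per library. The means were 0.710 ± 0.0111 and 0.570 ± 0.0504 (SD, n = 2 each), a delta PSI of 0.140, and 0.105 without SCRM replicate 1. Counting error alone gave intervals of 0.629 to 0.792 and 0.620 to 0.773 with RBFOXi and of 0.441 to 0.624 and 0.526 to 0.679 with SCRM. The interval of SCRM replicate 2 overlaps those of both RBFOXi libraries, and that of SCRM replicate 1 overlaps that of RBFOXi replicate 2. The exon is coding in 5 of the 7 annotated transcripts that hold it, of 15 for the gene, and its length is a multiple of 3.

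The direction was opposite for the same 60 nt exon in transcripts without the 75 nt exon. Its PSI there was 0.804 and 0.728 with RBFOXi and 0.827 and 0.840 with SCRM, a delta PSI of -0.0673 with groups that did not overlap. This event rested on 64 to 102 counts, of which 12, 23, 9 and 11 were skipping counts that join the exons on either side of the pair (RBFOXi replicates 1 and 2, then SCRM replicates 1 and 2). The 75 nt exon is scored against the same skipping counts and had PSI of 0.891, 0.856, 0.921 and 0.926, a delta PSI of -0.0505. Given the 60 nt exon, the 75 nt exon had PSI of 0.899 and 0.934 with RBFOXi and 0.911 and 0.897 with SCRM, and the groups overlapped. Where 1 of the pair was present without the other, the 75 nt exon took 0.666 and 0.689 with RBFOXi and 0.711 and 0.706 with SCRM, a delta PSI of -0.0308. For the 60 nt exon without the 75 nt exon, counting error alone gave intervals of 0.690 to 0.883 and 0.628 to 0.809 with RBFOXi. With SCRM they were 0.705 to 0.905 and 0.738 to 0.907, and so overlapped those of RBFOXi. The PSI values of the events at this pair share reads and rest on small counts. Whether the RBFOXi libraries held more transcripts with neither exon was not tested.

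**Figure D4:**
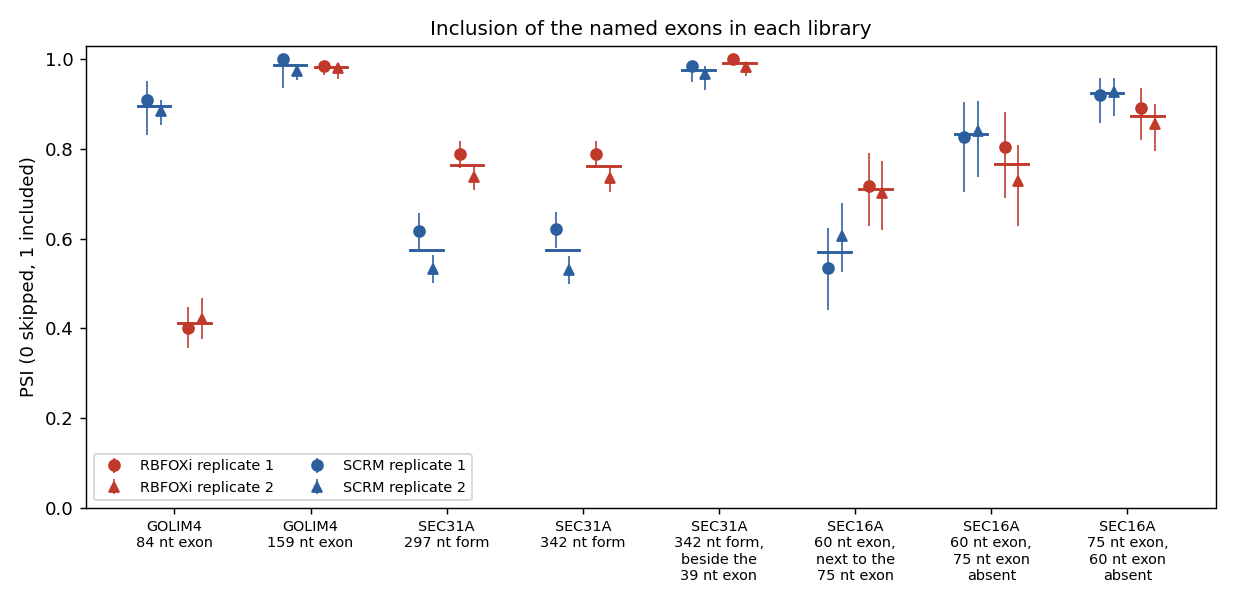
PSI (y) of the leading and neighbouring exons of the 3 genes in each library, SCRM in blue and RBFOXi in red, circles for replicate 1 and triangles for replicate 2. Horizontal lines are group means (n = 2) and vertical bars are Wilson 95% intervals for counting error. The GOLIM4 84 nt exon falls from means of 0.897 to 0.411, both SEC31A forms and the SEC16A 60 nt exon beside the 75 nt exon lie higher with RBFOXi, and the last 2 SEC16A events lie lower.

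The rest of SEC16A moved little. In 4 other tested cassette events PSI was at least 0.95 in every library, with delta PSI from -0.00716 to 0.00968. A 122 nt exon in the 5′ part of the gene had PSI from 0.0156 to 0.0498. Just upstream of the 75 nt exon, acceptor sites 9, 57 and 66 nt apart gave delta PSI of 0.0415, -0.0217 and 0.0227, and the 9 nt pair was the one whose groups did not overlap, with 0.947 and 0.907 against 0.901 and 0.870 for the upstream site. At acceptors 3 nt apart, SEC16A used the upstream one at 0.959 to 0.972 and SEC31A at 0.786 to 0.797, with delta PSI of 0.00406 and -0.00741. The SEC31A groups did not overlap there, with 0.792 and 0.786 with RBFOXi and 0.795 and 0.797 with SCRM. Of the 5 tested acceptor events of the 3 genes, 2 thus had separate groups, against 928 of 3009 over all genes. The largest absolute delta PSI among the 8 mutually exclusive events of SEC16A was 0.0377, of a pair of exons each included at 0.95 or more as a cassette exon. In limma, 0 of the 5 tested alternative 3′ splice sites and 0 of the 2 alternative 5′ splice sites of the 3 genes were called, with 0 of either at an unadjusted p under 0.05. Over all genes 0% were called in both tables, and 3.32% and 3.59% had such a p.

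Over the 42 tested skipped exon events of the 3 genes, the groups did not overlap in 13, against 30.8% of all tested events, and in 4 of these delta PSI was also 0.1 or more in size, against 3.09%. These 4 are the GOLIM4 exon, both forms of the SEC31A exon and the SEC16A exon, and the genes were chosen with such values known. The median absolute delta PSI was 0.00811 in the 3 genes and 0.00803 over all tested events. Counted by event, UGCAUG lay within 300 nt in the flanking introns of 2 of 2 GOLIM4, 6 of 31 SEC31A and 2 of 9 SEC16A events. Of all tested events, 16% had it in one or the other of these windows (8.41% in each). Counted by exon, 7 of the 30 tested exons had it, and no share by exon was computed over all genes. Among those 7, the GOLIM4 exon and the SEC16A exon were the ones that moved by 0.1 or more. The others were the GOLIM4 159 nt exon, both SEC31A exons of 39 nt, and SEC31A exons of 72 nt and 143 nt with PSI of at least 0.976 in every library and motifs 88 and 293 nt downstream. Of these others, the 72 nt exon had groups that did not overlap, with a delta PSI of -0.00548. A motif match describes these letters only, and binding was not measured here.

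Exons of other genes came close to the pattern of each leading exon over the 4 libraries, by the root mean square difference of PSI. Closest to GOLIM4 were FAM126A, MAP2 and CLSTN1, with differences of 0.0247, 0.0435 and 0.0673. For FAM126A, PSI was 0.396 and 0.428 with RBFOXi and 0.888 and 0.928 with SCRM. The FAM126A and CLSTN1 exons have UGCAUG in the first 300 nt downstream, as the GOLIM4 exon does, and the MAP2 exon does not. Closest to SEC31A were ERCC1, POLL and NEURL1B, with differences of 0.0255 to 0.0341, and closest to SEC16A were NAE1, STRN3 and EXOC3, with 0.0311 to 0.0349. Of these 6 exons, that of EXOC3 has the motif in the last 300 nt upstream and the other 5 have it in neither window. Counts per library were 647 to 2934 for FAM126A, 450 to 997 for CLSTN1 and 37 to 103 for MAP2. They were 58 to 97 for ERCC1, 53 to 103 for POLL and 28 to 351 for NEURL1B. For NAE1, STRN3 and EXOC3 they were 77 to 252, 12 to 111 and 89 to 160, so several of these likenesses rest on few counts.

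Other genes of the secretory pathway had 0 called events. Lists of 36 genes of the COPII coat and exit sites, 37 of Golgi membranes and tethers, 19 of the COPI coat and 20 of the translocon held 551 tested skipped exon events. limma called 0 of them, against 27 of all 39615 tested events (0.0682%). The quasi-binomial F test also called 0, against 50 over all genes. With so small a share called over all events, 0 calls in 551 do not set these genes apart. With limma, 19 of the 551 (3.45%) had an unadjusted p under 0.05, 6 lower and 13 higher with RBFOXi. Over all tested events 3.61% had such a p, 688 lower and 742 higher. The medians of delta PSI were 0.000668, -0.000909, -0.000167 and 0.000383 in the 4 lists, against -5.65e-05 over all events. Among the Golgi genes, the event with the smallest p was an 81 nt exon of GOLGA2, the cis-Golgi matrix protein GM130, at chr9:131035064-131035144. Its PSI was 0.443 and 0.330 with RBFOXi and 0.655 and 0.596 with SCRM, on 273 to 938 counts, and UGCAUG lies within the first 300 nt downstream. The groups did not overlap, with a delta PSI of -0.239, but the event was not called (limma, adjusted p = 0.429). GOLGB1, a Golgi tether also known as giantin, had a delta PSI of -0.309 on as few as 6 counts in a library (limma, adjusted p = 1.00). In the COPII list, SEC24D and SEC24C, cargo-binding subunits of the inner coat, had delta PSI of 0.00806 and -0.0306. In the COPI list GBF1 and ARFGAP2, regulators of the ARF GTPases, had -0.00705 and 0.0314, and in the translocon list the signal recognition particle receptor SRPR and TRAM2 had 0.00756 and 0.00379.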

How the data were processed

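RNA-seq of 2 RBFOXi and 2 SCRM libraries was analysed from 5 deposited event tables. The authors aligned reads uniquely to hg19 with STAR 2.4.2a (submitters' processing notes) and counted them per event with rMATS. The deposited inclusion and skipping counts are per library and not normalized, held as comma-separated pairs beside effective lengths. The authors' p-values, FDR, inclusion levels and their differences were not used.

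The members and gene lists were chosen with earlier results of these data known. Named were member events that moved by 0.1 or more with separate groups, every event at a leading exon, the largest delta PSI per gene and event type, the 2 events of smallest p per list, and the 3 exons nearest each leading exon. Exons added beside these were chosen after their values were seen. log2 odds of inclusion (pseudocount 0.5) were fitted on condition with limma 3.58.1 (R 4.3.3), with a variance trend and Benjamini-Hochberg adjustment within each event type. The fit was also run on simulated data with the same noise in every library. That run cannot show how the fit handles the lower 5′ counts of SCRM replicate 1. A mean of 20 counts per library, 5 in each and 4 of each form were required. With 2 libraries per group, p-values measure the spread between these samples only. Sequences came from GRCh37 (donor GT in 98.8% of tested skipped exon events) and transcripts from GENCODE 44. Tables were made with pandas 2.3.3 and numpy 2.4.6 in Python 3.11.15, intervals with scipy 1.17.1 and plots with matplotlib 3.10.9. Alternatives covered test, pseudocount, filter, centring, block, delta PSI minimum, PSI definition and libraries left out.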

Additional observations from a re-analysis of the deposited data

How the results depend on the processing

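The GOLIM4, SEC31A and SEC16A leading values kept their direction when any 1 library was left out, with delta PSI from -0.497 to -0.473, from 0.146 to 0.231 and from 0.105 to 0.176. With the plain share of inclusion counts GOLIM4 gave -0.373 and SEC31A 0.0578, since the forms differ in length. The SEC31A exon set against the 39 nt exon gave 0.0149, and the SEC16A exon without the 75 nt exon reversed to -0.0673. The count of called skipped exon events was 27, and 1 with a pseudocount of 0.1, 44 with 1 count in every library as the filter, 50 with the quasi-binomial F test (chosen after seeing the data), and 3 to 63 with a library left out (3 without SCRM replicate 1, 6 without SCRM replicate 2, 63 without RBFOXi replicate 1). A lone library is there assumed to vary like the rest. The GOLIM4 call was lost with a pseudocount of 0.1 and without SCRM replicate 1, so the member count ranged from 0 to 1 over the libraries left out. Without either SCRM library 2 SEC31A mutually exclusive events were called, a range of 0 to 2. The 4 pathway lists had 0 calls with every library left out. The cause of these changes was not tested. The titles of same-numbered libraries share an ending across the groups (D_R for 1, P for 2), but neither labels nor methods say what it marks, and deviations of same-numbered libraries correlated at 0.0944. With the replicate block the counts were 119 for all skipped exons, 3 for the members (GOLIM4 and both SEC31A forms), 2 for their other event types and 1 for the Golgi list (GOLGA2). The planned edgeR test was not run, because the paired counts could not be recorded in the unit it needs.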
